A study of Mus musculus with 3 samples.

Results

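The 5 chemokine genes Ccl2, Ccl7, Ccl8, Ccl11 and Ccl12 and the receptor gene Ccr2 were taken by symbol from the gene list of a mouse single-cell RNA sequencing series, 6 of 32285 genes. The series holds 3 libraries of dissociated tumour tissue with 1 library per group, so every difference between groups is a difference between 2 libraries. The grafted cells were LLC1-sgLkb1, Lewis lung carcinoma cells that the labels give as LKB1 knockdown in all 3 groups. They were injected into the tail vein to seed lung lesions, and 3 weeks later under the skin to make the side meant for irradiation. The Flox+ICI library came from Sfrp2fl/fl mice given an immune checkpoint inhibitor alone, and the Flox+RI library from Sfrp2fl/fl mice given radiation and the inhibitor. The library labelled CKO+RI, read here as the Sfrp2ΔCol1a2 mice of the design, also had radiation and the inhibitor. CKO+RI stands throughout for the library so labelled, not for a checked genotype. That allele name denotes loss of Sfrp2 from cells in which the Col1a2 gene is active. The inhibitor, the radiation dose, the ages of the mice and the number of mice per library are not given in the sources used here, and the labels call every sample tumour without saying from which side.

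CCL2, CCL7, CCL8 and CCL12 are small secreted proteins that attract monocytes, and CCL11 (eotaxin) attracts mainly eosinophils through another receptor, CCR3. CCR2 is the G protein-coupled receptor through which monocytes follow CCL2, CCL7 and CCL12. It lets Ly6C-high classical monocytes leave the bone marrow and enter inflamed or tumour-bearing tissue, where many become macrophages. In mice CCL8 acts largely through CCR8, a receptor of Th2-type and regulatory T cells.

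The 5 chemokine genes stand beside each other on chromosome 11 of GRCm38, all on the plus strand and each with 3 exons in GENCODE M21. Ccl2 lies at chr11:82035571-82037453, and the starts of Ccl7, Ccl11, Ccl12 and Ccl8 follow at 10.1, 22.3, 66.3 and 79.6 kb from its start. Ccr2 lies on chromosome 9, at chr9:124101950-124113557, with 2 exons. The family is named for a pair of adjacent cysteines, and the 36 coding bases around that pair are shown because all 5 ligands carry it within otherwise diverged sequence, read here from the GENCODE M21 transcripts with the 2 cysteine codons in capitals.
Ccl2: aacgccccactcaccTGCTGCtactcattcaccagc
Ccl7: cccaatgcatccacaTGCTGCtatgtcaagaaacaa
Ccl8: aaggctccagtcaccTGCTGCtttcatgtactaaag
Ccl11: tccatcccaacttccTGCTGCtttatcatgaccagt
Ccl12: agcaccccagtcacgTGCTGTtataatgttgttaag
The first cysteine codon is codon 34, 33, 32, 32 and 33 in that order. Coding sequences of the 5 ligands were 43.9% to 66.3% identical in pairs. Among the 251 stretches of 50 bases in the last 300 bases of each transcript, where 3′ reads fall, 0 were shared with another gene, so reads could be told apart between these neighbours.

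The libraries held 10842, 13340 and 9300 cell barcodes for Flox+ICI, Flox+RI and CKO+RI, and this order holds for every triplet of values. Filters and doublet removal left 9777, 11706 and 8383 cells with 65737509, 86628187 and 143637387 UMIs (unique molecular identifiers, the count of captured transcripts). Median depth was 3018, 2576.5 and 13406 UMIs per kept cell, and 8336, 7778 and 7771 cells had at least 1000. Between 31 and 37 barcode sequences recurred in each pair of libraries. Sfrp2, the gene deleted by design, had 6, 3 and 46 UMIs in kept cells, of which 3, 1 and 37 lay in fibroblast-like cells, so the counts went against the label, and the direction of every comparison with that library rests on its label alone. The exons removed by the deletion are not given in the sources used here, and reads from the rest of the gene would not check it. No comparison that involves CKO+RI can be made without it, and the Sfrp2 counts do not check the labels of the 2 Flox libraries either. An unnamed cluster led by Ccl3, Itpr2 and Il1rn held 2660 Flox+RI cells among its 2707, with a median of 829 UMIs.

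Levels are given as CPM, the UMIs of a gene per 1000000 UMIs of the cells named. Ratios carry 95% intervals for counting error only, which take each UMI as independent. They say nothing of the spread between cells or between mice. Over all kept cells, Ccl2 stood at 425, 315 and 892 CPM, Ccl7 at 60.8, 70.5 and 143, and Ccl8 at 57.2, 34.4 and 101. Ccl11 stood at 2.51, 0.646 and 15.5 CPM, Ccl12 at 5.22, 9.21 and 15.4, and Ccr2 at 24.7, 6.57 and 8.99. CKO+RI was the highest library for each of the 5 ligands and Flox+ICI for the receptor. A gene was counted as higher or lower when its CPM differed at least 2-fold with at least 20 UMIs in both libraries together. Between CKO+RI and Flox+RI, Ccl2, Ccl7, Ccl8 and Ccl11 were at least 2-fold higher, 4 of 6 where 5.32% of all measured genes were, and 0 of 6 were lower where 11.8% were. Between Flox+RI and Flox+ICI, Ccl11 and Ccr2 were at least 2-fold lower, 2 of 6 against 14.6% of all genes, and 0 of 6 were higher against 2.5%. The log2 ratio of the median gene was -0.29 in the latter comparison and -0.03 in the former.

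**Figure D1:**
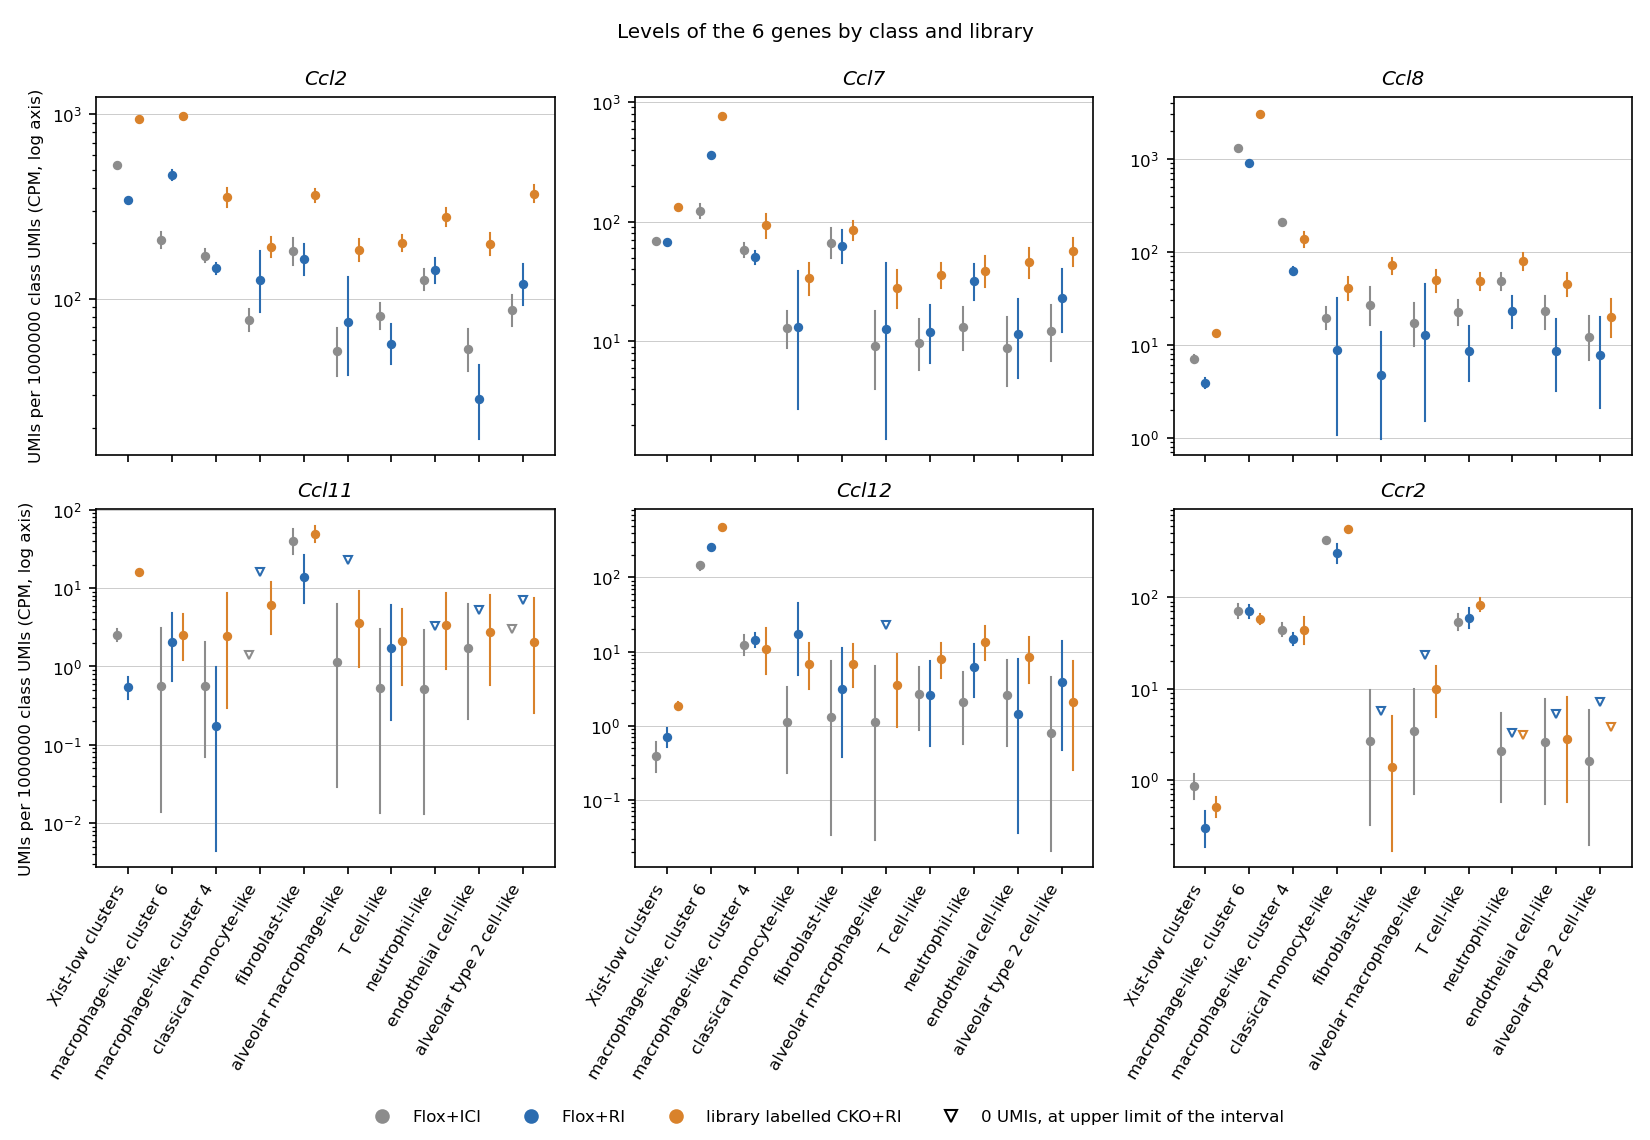
CPM of the 6 genes (log axis) in each cell class with at least 50 cells, by library, with 95% Poisson intervals for counting error; open triangles mark 0 UMIs at the upper limit. Among the classes plotted, which leave out the unnamed clusters, Ccl7, Ccl8 and Ccl12 were highest in macrophage-like cluster 6 in each library, Ccl11 in fibroblast-like cells and Ccr2 in classical monocyte-like cells, while Ccl2 was highest in the Xist-low clusters in Flox+ICI and in cluster 6 in the other two.

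Cells were grouped into 22 clusters with the 6 genes left out of the genes used, and clusters were named from marker lists. Of these, 4 clusters had 1.94 to 2.88 CPM of Xist, the RNA of the inactive X chromosome of female cells. Clusters low in Xist were matched only to the Lewis lung carcinoma list, unless an erythroid or platelet list scored high. Among all lists, the carcinoma list scored best in clusters 1, 3 and 8, and the fibroblast list in cluster 2. These 4 clusters are called the Xist-low clusters and held 3170, 4077 and 4534 cells. Clusters 1, 3 and 8 carried the name tumour-like, and cluster 2, led by Lum, Ereg and Dcn, was left unnamed. Cluster 1 held 202, 2547 and 84 cells and cluster 2 held 793, 976 and 2138. Cluster 3 held 745, 457 and 1997 cells and cluster 8 held 1430, 97 and 315. The Xist-low clusters were thus not the same mix in the 3 libraries, and ratios over all 4 carry that difference of mix. Macrophage-like cells, 993, 1856 and 571 in number, came from cluster 4, led by Ctss, Hmox1, Apoe, Trem2 and Gpnmb, and cluster 6, led by Ccl8, Pf4, C1qa and Mrc1. The classical monocyte-like cells numbered 960, 131 and 337 and the fibroblast-like cells 295, 74 and 213.

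Ccl2, the main CCR2 ligand, had 91.4%, 88.6% and 92.2% of its UMIs in the Xist-low clusters, which are deep and held 73.6%, 81.1% and 87.1% of the UMIs of all genes. Its level there was 528, 343 and 944 CPM, the lowest in Flox+RI and the highest in CKO+RI. CKO+RI was 2.75-fold higher (2.71 to 2.79) than Flox+RI, and Flox+RI was 1.54-fold lower (1.51 to 1.57) than Flox+ICI. By cluster, cluster 1 had 773, 315 and 1048 CPM, cluster 2 had 859, 472 and 1239, cluster 3 had 342, 202 and 540.3 and cluster 8 had 383, 428 and 1532. CKO+RI was the highest library in each of the 4, by 2.63-fold to 3.58-fold over Flox+RI. Flox+RI was below Flox+ICI in clusters 1, 2 and 3, and 1.12-fold higher (1.01 to 1.24) in cluster 8. With each cell thinned to 1000 UMIs, 32.1%, 23.7% and 42.2% of Xist-low cells had a Ccl2 UMI (unthinned 82.8%, 79.8% and 95.3%).

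Ccl2 was also present in macrophage-like cells, at 184, 243 and 869 CPM. CKO+RI was 3.58-fold higher (3.39 to 3.78) than Flox+RI there. Flox+RI was 1.32-fold higher (1.22 to 1.43) than Flox+ICI, but without doublet removal the ratio was 0.812, in the other direction. The 2 macrophage-like clusters differed. In cluster 6, Ccl2 stood at 209, 468 and 976 CPM, and Flox+RI was 2.24-fold higher (1.99 to 2.53) than Flox+ICI. In cluster 4 it stood at 171, 146 and 355 CPM, and Flox+RI was 1.17-fold lower (1.05 to 1.30). At 1000 UMIs per cell, 14.7%, 16% and 43.9% of macrophage-like cells had a Ccl2 UMI (unthinned 44.2%, 41.5% and 82.0%).

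Fibroblast-like cells had 181, 164 and 363 CPM of Ccl2, again highest in CKO+RI, by 2.22 (1.79 to 2.76) times over Flox+RI. Flox+RI and Flox+ICI did not differ beyond counting error there, with a ratio of 0.906 (0.696 to 1.18), and giving each cell the same weight gave 1.52. Naming each cell by its own marker UMIs moved the first ratio to 4.02, but that class could take in cells of the Xist-low clusters. A split of the fibroblast-like cluster, made after the values were seen, put 32, 12 and 190 Ccl2 UMIs in fibroblast-matched cells. Cells matched to the pericyte or smooth muscle list held 88, 35 and 108, and mesothelial-matched cells 0, 57 and 160. Flox+RI had 33 cells of the first kind, 29 of the second and 9 of the third, too few to compare. Ccl2 UMIs also lay in cells that are not known as its main source, at 80.9, 57.2 and 201 CPM in T cell-like, 127, 143 and 279 in neutrophil-like, 53.2, 28.5 and 198 in endothelial cell-like and 86.6, 121 and 371 in alveolar type 2 cell-like cells. CKO+RI was the highest library in each of these classes too. Erythroid cell-like cells had more Ccl2 than these classes in each library, at 189, 390 and 699 CPM. They numbered 28, 27 and 190, too few in the Flox libraries to compare. The part of free RNA from broken cells in such readings was not tested. At 1000 UMIs per cell, 8.56%, 6.51% and 21.4% of T cell-like cells had a Ccl2 UMI (unthinned 14.0%, 8.81% and 46.5%), at median depths of 1500, 1329.5 and 2787 UMIs against 5116, 4357 and 7986 in macrophage-like cells and 14687, 16294 and 25594.5 in the Xist-low clusters. The macrophage-like share lay above the T cell-like share in each library.

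**Figure D2:**
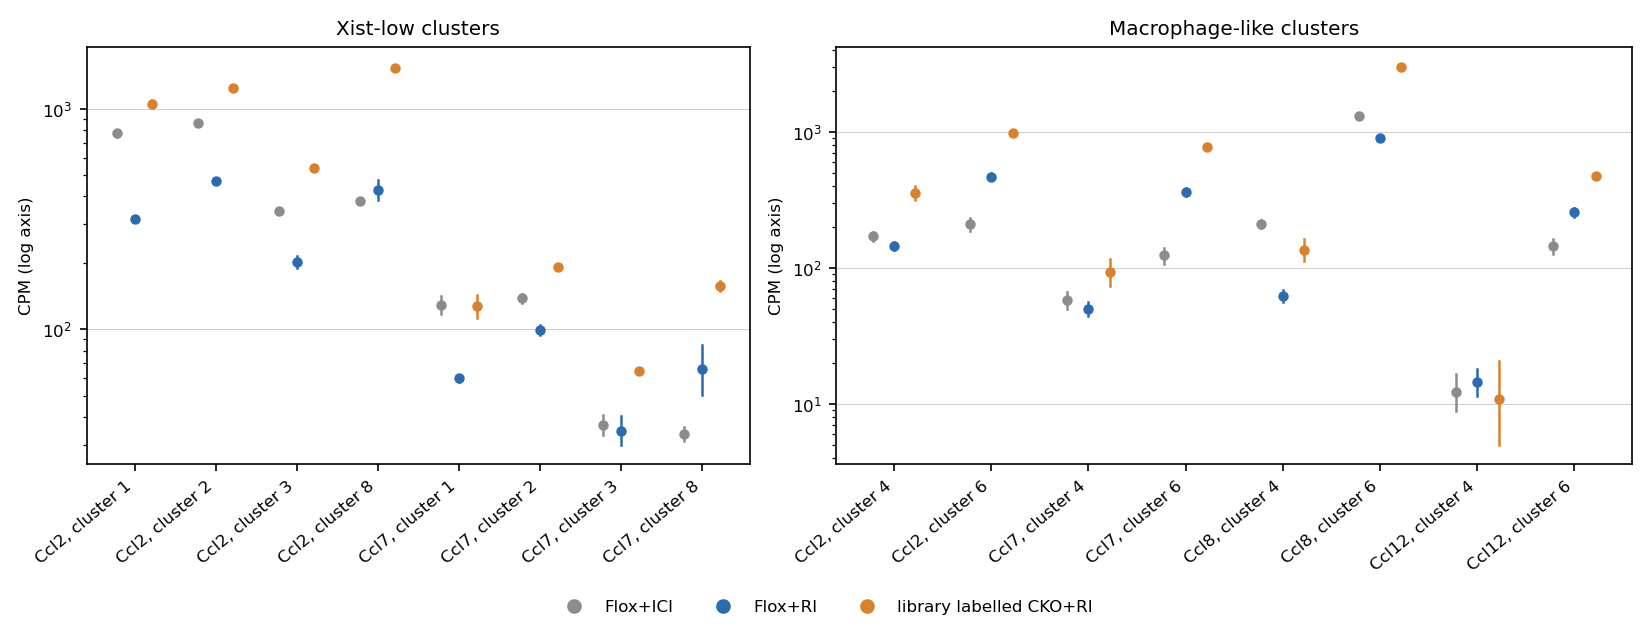
CPM (log axis) of Ccl2 and Ccl7 in the 4 Xist-low clusters (left) and of Ccl2, Ccl7, Ccl8 and Ccl12 in macrophage-like clusters 4 and 6 (right), by library, with 95% Poisson intervals. CKO+RI was the highest library for Ccl2 in each Xist-low cluster, and cluster 6 was above cluster 4 for each gene in each library.

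Ccl7, whose protein binds CCR2 and other receptors, had 83.5%, 77.0% and 80.0% of its UMIs in the Xist-low clusters. That is above their share of the UMIs of all genes in Flox+ICI and below it in the other two libraries. The level there was 68.9, 67.0 and 131 CPM. Both Flox libraries were close there, with a ratio of 0.971 (0.929 to 1.02), and CKO+RI was 1.96-fold higher (1.90 to 2.02) than Flox+RI, just under the 2-fold mark. In cells whose own marker UMIs matched the carcinoma list, named without regard to Xist or cluster, the ratio was 1.17. By cluster, the levels were 129, 59.9 and 127 CPM in cluster 1, 138, 99.5 and 191 in cluster 2, 36.9, 34.7 and 64.8 in cluster 3 and 33.6, 66.1 and 157 in cluster 8. The 2 Flox libraries were thus in opposite order in clusters 1 and 8.

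In macrophage-like cells Ccl7 stood at 80.2, 143 and 654 CPM, and these cells held 10.6%, 19.2% and 15.2% of its UMIs. CKO+RI was 4.56-fold higher (4.26 to 4.88) than Flox+RI, and Flox+RI was 1.79-fold higher (1.60 to 2.002) than Flox+ICI. The level was concentrated in cluster 6, at 124, 361 and 771 CPM against 57.9, 50.2 and 93.1 in cluster 4. Within cluster 6, CKO+RI was 2.14-fold higher (1.98 to 2.31) than Flox+RI and Flox+RI 2.92-fold higher (2.52 to 3.40) than Flox+ICI. At 1000 UMIs per cell, 5.27%, 9% and 28.7% of macrophage-like cells and 5.28%, 5.79% and 9.68% of Xist-low cells had a Ccl7 UMI (unthinned 17.3%, 21.3% and 54.3%, and 33.8%, 44.5% and 59.6%). T cell-like cells had 9.64, 12.0 and 35.8 CPM, and at 1000 UMIs per cell 1.43%, 0.558% and 3.22% of them had a Ccl7 UMI.

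Ccl8 was a macrophage transcript in these data: macrophage-like cells held 82.1%, 86.4% and 82.0% of its UMIs, 3085, 2577 and 11902 in number, with 8.07%, 9.43% and 3.32% of the UMIs of all genes. Their level was 582, 315 and 2495 CPM, lowest in Flox+RI, which was 1.85-fold lower (1.75 to 1.94) than Flox+ICI. The ratio of CKO+RI to Flox+RI in this class was 7.91 (7.58 to 8.26). Cluster 6 made up 34.9%, 31.7% and 82.7% of macrophage-like cells, so the class was not the same mix in the 3 libraries. Within cluster 6, Ccl8 stood at 1306, 906 and 2989 CPM, and CKO+RI was 3.30-fold higher (3.15 to 3.45) than Flox+RI, a smaller ratio than in the whole class. Within cluster 4 it stood at 211, 62.2 and 137 CPM, where Flox+ICI was the highest library, Flox+RI was 3.38-fold lower (2.98 to 3.85) and CKO+RI was 2.20-fold higher (1.76 to 2.72) than Flox+RI. The mixture of clusters and the level within a cluster both moved with the library labelled CKO+RI.

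A finer clustering into 34 clusters split these cells further. In a macrophage cluster led by MHC class II genes, with 392, 229 and 198 cells, Ccl8 stood at 722, 27.6 and 1627 CPM, a ratio of 59.0 (39.5 to 92.2) between CKO+RI and Flox+RI. In the cluster led by Pf4 and Mrc1, with 77, 510 and 295 cells, it stood at 2448, 949 and 3753 CPM, and in the cluster led by Hmox1 and Gpnmb at 216, 66.9 and 159.9 CPM. The order of the 3 libraries was therefore the same in the first 2 of these clusters and different in the third, where Flox+ICI was highest. Ccl8 was uneven between cells: the 10% of macrophage-like cells with most Ccl8 UMIs held 88.5%, 98.1% and 70.7% of them, and the highest cell had 108, 131 and 372 UMIs. At 1000 UMIs per cell, 15.5%, 6.83% and 36.7% of macrophage-like cells had a Ccl8 UMI (unthinned 25.7%, 12.6% and 58.1%).

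In other named classes and the Xist-low clusters Ccl8 was lower, at 7.01, 3.86 and 13.2 CPM in the Xist-low clusters, 26.6, 4.68 and 71.0 in fibroblast-like, 22.5, 8.54 and 47.9 in T cell-like and 47.6, 22.8 and 79.3 in neutrophil-like cells. An unnamed cluster led by Pf4, Rps26, AY036118 and Ccl8, with 133, 195 and 443 cells, had 71.9, 34.9 and 134 CPM. In CKO+RI that was close to the 137 CPM of macrophage-like cluster 4. These levels followed the order of the macrophage level over the libraries. Per 100 UMIs of the complement genes C1qa, C1qb and C1qc, which macrophages make, Ccl8 had 6.12, 5.03 and 20.4 UMIs in macrophage-like cells, 17.0, 7.41 and 29.8 in T cell-like and 22.8, 9.84 and 30 in endothelial cell-like cells. Only 0.696%, 0.501% and 1.53% of Xist-low cells had a Ccl8 UMI at 1000 UMIs per cell, against 10.1%, 6.45% and 29.4% unthinned at their depth. The part of free RNA in the Ccl8 counts of cells other than macrophages was not tested.

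Ccl12, a mouse CCR2 ligand without a direct human counterpart, lay in the same cells. Macrophage-like cells held 88.3%, 89.0% and 85.1% of its UMIs, at 57.1, 86.9 and 394 CPM. In contrast to Ccl8, Flox+RI was 1.52-fold higher (1.33 to 1.74) than Flox+ICI, and CKO+RI was 4.54-fold higher (4.16 to 4.95) than Flox+RI. Its level in cluster 6 was 145, 256 and 475 CPM, where CKO+RI was 1.86-fold higher (1.69 to 2.03) than Flox+RI, less than 2-fold. Cluster 4 had 12.3, 14.5 and 10.9 CPM, with a ratio of 0.750 (0.331 to 1.49) between CKO+RI and Flox+RI, an interval that takes in no difference. In the finer clustering, the MHC class II cluster had 64.2, 4.60 and 307 CPM and the Pf4 and Mrc1 cluster 332, 271 and 564. The Flox+RI library was thus the lowest in both for Ccl8 and for Ccl12. The Xist-low clusters had 0.393, 0.697 and 1.85 CPM.

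In macrophage-like cells, 4 of the 5 measured genes (Ccl2, Ccl7, Ccl8 and Ccl12) were at least 2-fold higher in CKO+RI than in Flox+RI, where 6.6% of all measured genes were, and 0 of 5 were lower (9.22% of all). Between Flox+RI and Flox+ICI, 0 of 5 were past 2-fold in either direction, against 3.51% of all genes higher and 3.36% lower. Inside cluster 6 the first count was 3 of 5 (Ccl2, Ccl7 and Ccl8) against 4.69% of all genes, and in cluster 4 it was 2 of 5 (Ccl2 and Ccl8) against 6.37%. None of the 5 was lower in either cluster, where 7.87% and 10.3% of all genes were. Between the Flox libraries, Ccl2 and Ccl7 were past 2-fold higher in Flox+RI in cluster 6 (6.15% of all genes), and Ccl8 past 2-fold lower in cluster 4 (4.32% of all genes). In the opposite directions the counts were 0 of 5 in both, against 5.41% of all genes lower in cluster 6 and 3.04% higher in cluster 4. The Mrc1 and Folr2 macrophage list had 4 of 6 genes higher in CKO+RI than in Flox+RI over the class, with a median log2 ratio of 1.41 (all genes 0.11), but 0 of 6 higher and 1 lower in cluster 6, with a median of 0.10 (all genes 0.02). Folr2 was 3.90-fold higher, at 237 against 60.8 CPM. Of 11 genes that respond to tissue dissociation, 3 were higher and 1 lower in this comparison over the class, and their part in the result was not tested. The summed level of the 7 carcinoma markers in macrophage-like cells was 127, 231 and 275 CPM, with 7 of 7, 7 of 7 and 6 of 7 of them found, against 2177, 2525 and 2323 in tumour-like cells. The 7 fibroblast markers summed to 29.99, 45.4 and 135 CPM in macrophage-like cells, with 6 of 7, 7 of 7 and 7 of 7 found, and the part of either in the Ccl2 and Ccl7 levels was not tested.

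**Figure D3:**
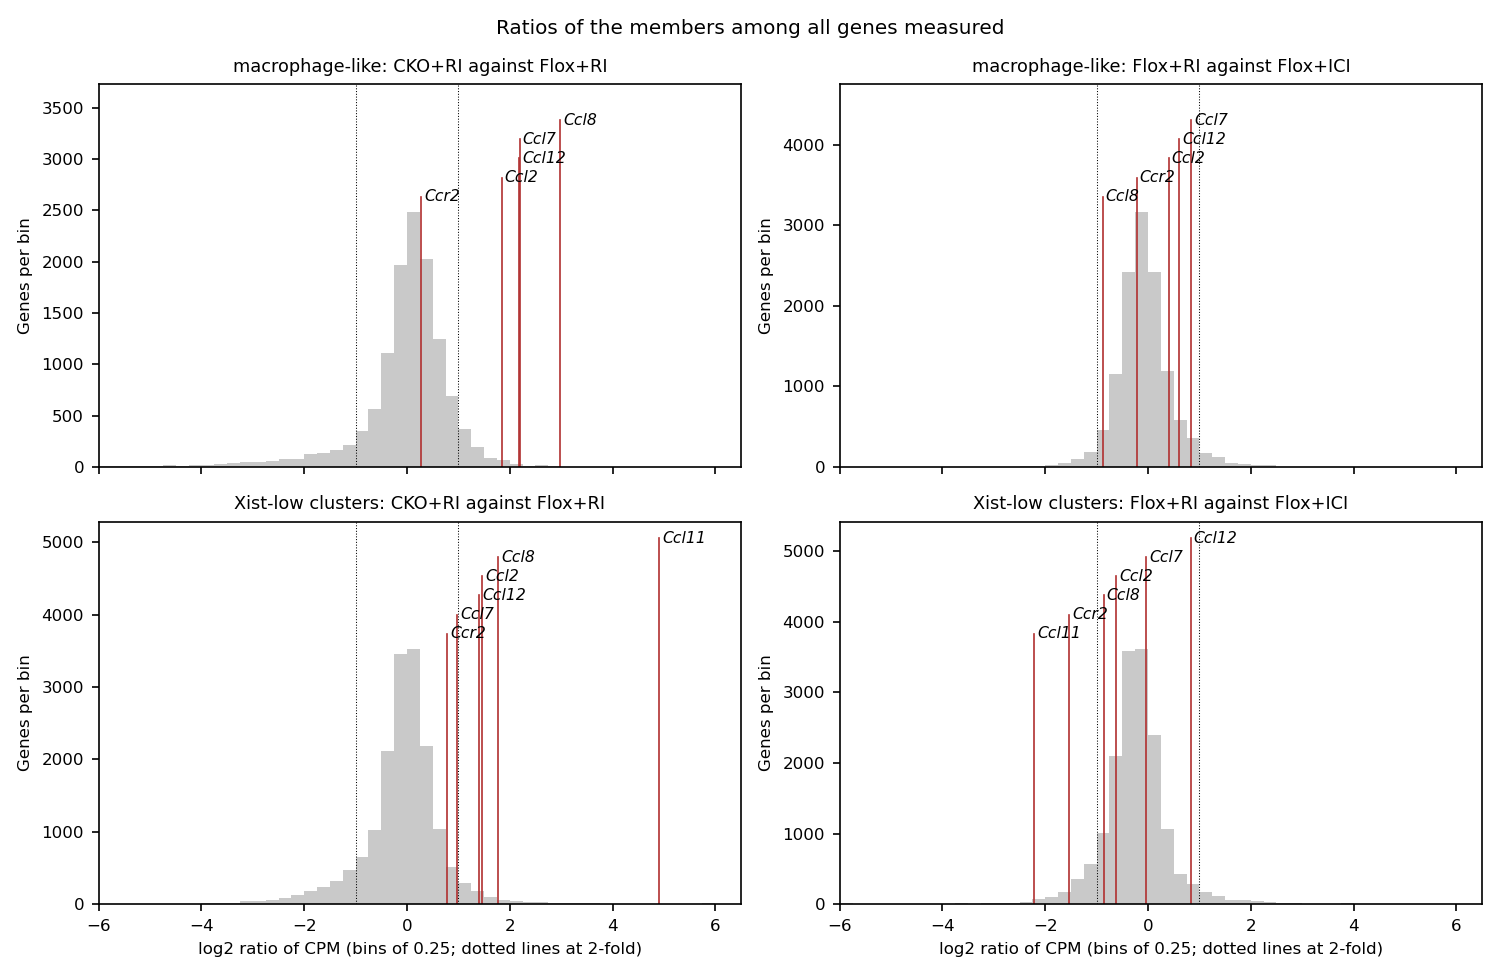
Histograms of the log2 CPM ratio of all measured genes in macrophage-like cells and in the Xist-low clusters, for each of the 2 comparisons, with the 6 genes marked and dotted lines at 2-fold. Ccl11 had under 20 UMIs in macrophage-like cells and is not marked there. For CKO+RI against Flox+RI, 4 of 5 genes lie past the upper line in macrophage-like cells and 4 of 6 in the Xist-low clusters.

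Promoter sequence was at hand for 3 of the 6 genes, Ccl8, Ccl12 and Ccr2 (RefSeq, GRCm38.p6). Those of Ccl8 and Ccl12 are shown because both transcripts lay in the same macrophage clusters; each run is the 250 bases before the gene's start on the plus strand, with the match to the TATA box letters TATAAA in capitals. Ccl8 is chr11:82114935-82115184 and Ccl12 is chr11:82101595-82101844.
Ccl8: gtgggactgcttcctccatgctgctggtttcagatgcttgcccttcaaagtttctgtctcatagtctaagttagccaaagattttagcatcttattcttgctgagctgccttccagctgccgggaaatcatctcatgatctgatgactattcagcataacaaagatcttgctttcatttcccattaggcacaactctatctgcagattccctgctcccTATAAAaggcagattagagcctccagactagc
Ccl12: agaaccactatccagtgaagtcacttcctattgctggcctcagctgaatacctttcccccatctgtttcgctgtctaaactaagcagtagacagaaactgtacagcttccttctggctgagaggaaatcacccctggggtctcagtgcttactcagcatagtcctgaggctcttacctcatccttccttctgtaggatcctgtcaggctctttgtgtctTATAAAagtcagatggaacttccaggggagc
The match starts 32 bases before the start of Ccl8 and 31 before that of Ccl12. Searched on both strands in windows of that length, TATAAA was present in 12.4% of 32851 promoters and not in the Ccr2 window. The promoters of Ccl8 and Ccl12 were 54.5% identical, and each was 44% to 46.0% identical to the Ccr2 window. The Ccr2 window, chr9:124101933-124102182, lies mostly past the GENCODE M21 start of Ccr2 given above. Those of Ccl8 and Ccl12 end just before the starts of their genes, so the Ccr2 readings come from an unlike stretch. AP-1 (TGANTCA, 6.75% of all promoters), the interferon gamma activated site (TTCNNNGAA, 7.02%), the interferon-stimulated response element (2.98%) and the NF-kappaB motif (7.25%) had no match in any of the 3 windows. The C/EBP letters TTNNGNAA, present in 36.8% of promoters, matched in that of Ccr2 only. These are letter matches in short windows and carry nothing on factor binding.

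Ccl11, the gene of eotaxin, had 165, 56 and 2230 UMIs in the 3 libraries, few in both Flox libraries. The Xist-low clusters held 73.9%, 67.9% and 90.7% of them, 122, 38 and 2023 in number, beside 73.6%, 81.1% and 87.1% of the UMIs of all genes. The level there was 2.52, 0.541 and 16.2 CPM. CKO+RI was 29.9-fold higher (21.7 to 42.4) than Flox+RI. It was 16.3-fold higher in cells whose own marker UMIs matched the carcinoma list, named without regard to Xist or cluster. Flox+RI was 4.67-fold lower (3.22 to 6.90) than Flox+ICI. Cluster 2, the one led by Lum, Ereg and Dcn, had 4.96, 1.09 and 27.2 CPM from 64, 17 and 1601 UMIs, and it held 71.8% of all Ccl11 UMIs of CKO+RI. In the finer clustering, 1 cluster led by Lum, Dcn and Ccl11, with 16, 16 and 597 cells, had 980 UMIs at 57.8 (95% Poisson interval 54.2 to 61.5) CPM in CKO+RI, 43.9% of the Ccl11 of that library. The level was uneven even there: 50% of the Ccl11 UMIs of the Xist-low clusters lay in 14, 6 and 71 cells. Since Lum and Dcn are matrix genes of fibroblasts, the 7 fibroblast markers were summed in cluster 2: they reached 749, 682 and 1410.1 CPM, against 6259, 9877 and 4629 in fibroblast-like cells and 299, 323 and 473 in tumour-like cells, with all 7 found in each library. Xist in cluster 2 was 2.40 CPM, against 265 in the fibroblast-like cluster.

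Fibroblast-like cells, of a type known to make eotaxin in tissue, had 39.9, 14.0 and 49.6 CPM of Ccl11 from 30, 9 and 72 UMIs. CKO+RI was 3.53-fold higher (1.76 to 8.04) than Flox+RI, but the latter rests on 9 UMIs in 74 cells, 5 of them in 1 cell. With each cell at the same weight the ratio was 9.38. Under the direct naming, which could bring cells of the Xist-low clusters into this class, it was 17.8. CKO+RI and Flox+ICI had similar levels in that class, while in the Xist-low clusters CKO+RI was far above both Flox libraries. Within the fibroblast-like cluster, cells whose own UMIs matched the fibroblast list, a split chosen after the values were seen, had 29, 1 and 65 UMIs of Ccl11 in 196, 33 and 113 cells, with too few cells in Flox+RI to compare. Their level was 63.2 CPM in Flox+ICI and 129 in CKO+RI, further apart than over the whole cluster. In Flox+RI, 8 of the 9 UMIs lay in cells matched to the pericyte or smooth muscle list. Macrophage-like cells had 3, 6 and 12 UMIs of Ccl11, at 0.566, 0.734 and 2.52 CPM. Erythroid cell-like cells had 0, 0 and 33, the last at 35.4 CPM in 190 cells, and the part of free RNA there was not tested. In fibroblast-like cells, 3 of 4 measured genes (Ccl2, Ccl8 and Ccl11) were at least 2-fold higher in CKO+RI than in Flox+RI (12.4% of all genes), and 2 (Ccl8 and Ccl11) were lower in Flox+RI than in Flox+ICI (18.5% of all genes). None was past 2-fold in the other direction, against 5.11% of all genes in the former comparison and 7.63% in the latter.

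In the Xist-low clusters, Ccl2, Ccl8, Ccl11 and Ccl12 were at least 2-fold higher in CKO+RI than in Flox+RI, 4 of 6 against 4.75% of all measured genes, and 0 of 6 were lower against 9.61%. Ccl8 and Ccl12 are counted there at only 13.2 and 1.85 CPM in CKO+RI. Between Flox+RI and Flox+ICI, Ccl11 and Ccr2 were lower, 2 of 6 against 8.56%, and 0 of 6 were higher against 3.32%. In cluster 2 alone, Ccl2, Ccl8 and Ccl11 were past 2-fold higher in CKO+RI, 3 of 6 against 3.27% of all genes, and 0 of 6 were lower (11.2%). Between the Flox libraries, 1 of 5 measured there (Ccl11) was lower in Flox+RI (2.38% of all genes) and 0 of 5 higher (3.85%). Of the 11 dissociation genes, 4 were higher and 1 lower in CKO+RI than in Flox+RI in the Xist-low clusters, with a median log2 ratio of 0.66 (all genes -0.03), and their part in the result was not tested. The 8 macrophage markers summed to 252, 278 and 133 CPM in tumour-like cells and 245, 267 and 128 in cluster 2. The part of macrophage RNA in the ligand levels of these clusters was not tested.

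**Figure D4:**
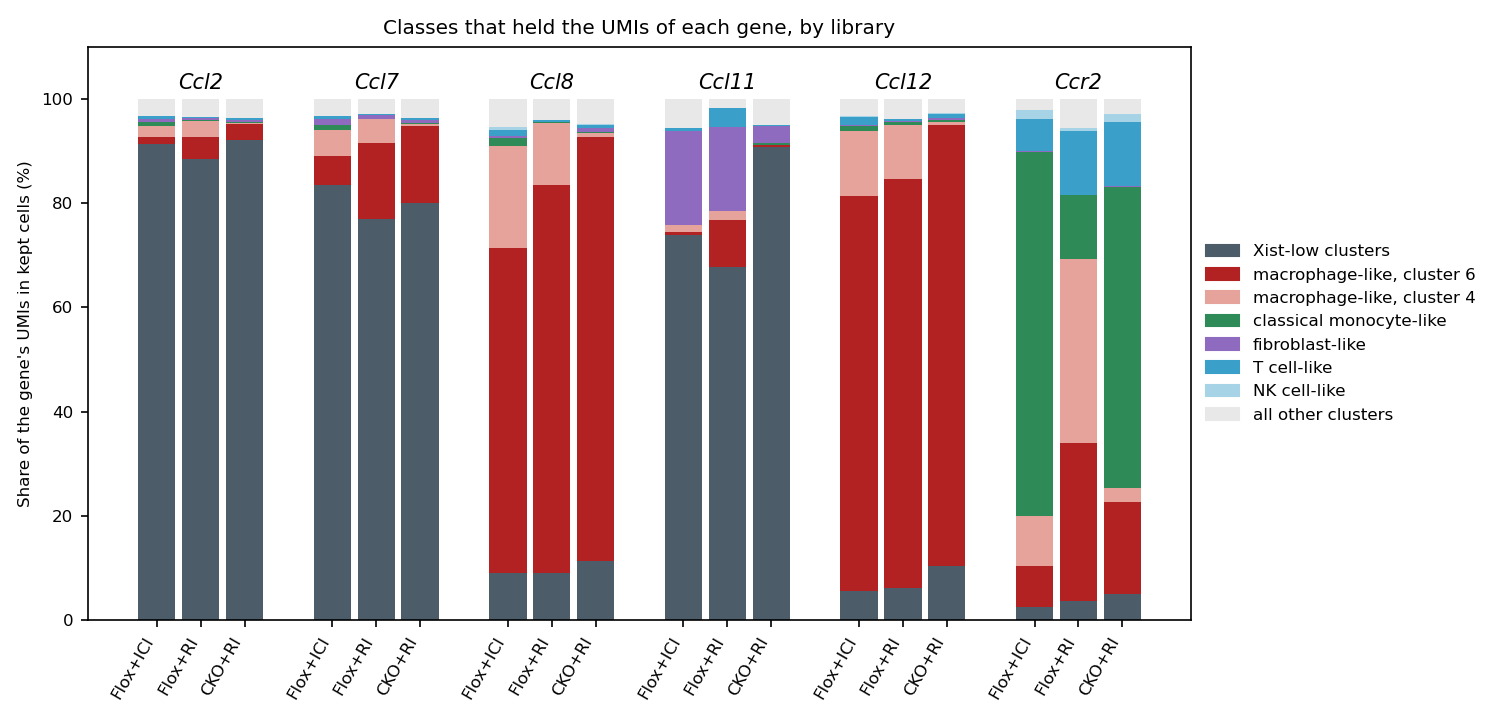
Share of each gene's UMIs, in percent, that lay in each cell class, stacked to 100% for each library. The Xist-low clusters, with 73.6%, 81.1% and 87.1% of the UMIs of all genes, held between 67.9% and 92.2% of Ccl2, Ccl7 and Ccl11, macrophage-like cells held between 82.0% and 89.0% of Ccl8 and Ccl12, and classical monocyte-like cells 70.0% of Ccr2 in Flox+ICI but 12.3% in Flox+RI.

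Ccr2, the receptor, was read as a mark of the cells that can receive the signal. Classical monocyte-like cells, named from 7 markers that do not include Ccr2, had the highest level, 426, 306 and 566 CPM from 1137, 70 and 745 UMIs. They held 70.0%, 12.3% and 57.7% of all Ccr2 UMIs, with 4.06%, 0.264% and 0.917% of the UMIs of all genes. The low share in Flox+RI went with few such cells, 9.82%, 1.12% and 4.02% of kept cells in the 3 libraries. Within the class, CKO+RI was 1.85-fold higher (1.45 to 2.40) than Flox+RI, and Flox+RI was 1.40-fold lower (1.10 to 1.80) than Flox+ICI. Naming each cell by its own markers put 718 Flox+RI cells into the class instead of 131, and the ratios became 6.23 and 0.192, so the level of Ccr2 per monocyte in Flox+RI depends on which cells are called monocytes. At 1000 UMIs per cell, 31.6%, 19.6% and 37.3% of monocyte-like cells had a Ccr2 UMI (unthinned 57.0%, 29.8% and 66.2%). Neutrophil-like cells had 4, 0 and 0 Ccr2 UMIs, and their 0 cells with a UMI in Flox+RI and CKO+RI allow shares of cells with a UMI, not of cells expressing the gene, of up to 0.201% and 0.472% (3 counts).

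Macrophage-like cells had 53.2, 45.6 and 55.3 CPM of Ccr2, close to each other, and they held 17.4%, 65.6% and 20.4% of its UMIs. The ratio of CKO+RI to Flox+RI was 1.21 (1.03 to 1.42), and it was 0.889 with the finer clustering, in the other direction. Cluster 6 had 70.7, 70.2 and 57.8 CPM and cluster 4 44.2, 35.1 and 43.5. T cell-like cells had 53.5, 59.8 and 83.2 CPM, with CKO+RI 1.39-fold higher (1.04 to 1.87) than Flox+RI and a ratio of 1.12 (0.811 to 1.53) between the Flox libraries, an interval that takes in no difference. The T cell-like share with a UMI at 1000 UMIs per cell was 5.11%, 5.20% and 8.33% (unthinned 7.68%, 7.95% and 20%), and that of macrophage-like cells 5.06%, 4.89% and 3.58% (unthinned 15.4%, 12.5% and 15.1%). T cell subsets, split after the values were seen by their own Cd8, Cd4 or Foxp3 UMIs, had 53.8, 36.6 and 77.0 CPM in CD8 cells, 20.6, 70.3 and 118 in CD4 cells and 59.6, 157 and 64.1 in Foxp3 cells. The last rest on 5, 20 and 6 UMIs in 27, 43 and 16 cells, under the minimum of 50 used for comparisons, so no order of the subsets is read from them. NK cell-like cells had 106 CPM in Flox+ICI and 97.0 in CKO+RI, and Flox+RI had too few of them. A small unnamed cluster of MHC class II cells had 69.1, 84.3 and 42.1 CPM. The Xist-low clusters were nearly free of Ccr2, at 0.868, 0.299 and 0.512 CPM.

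**Figure D5:**
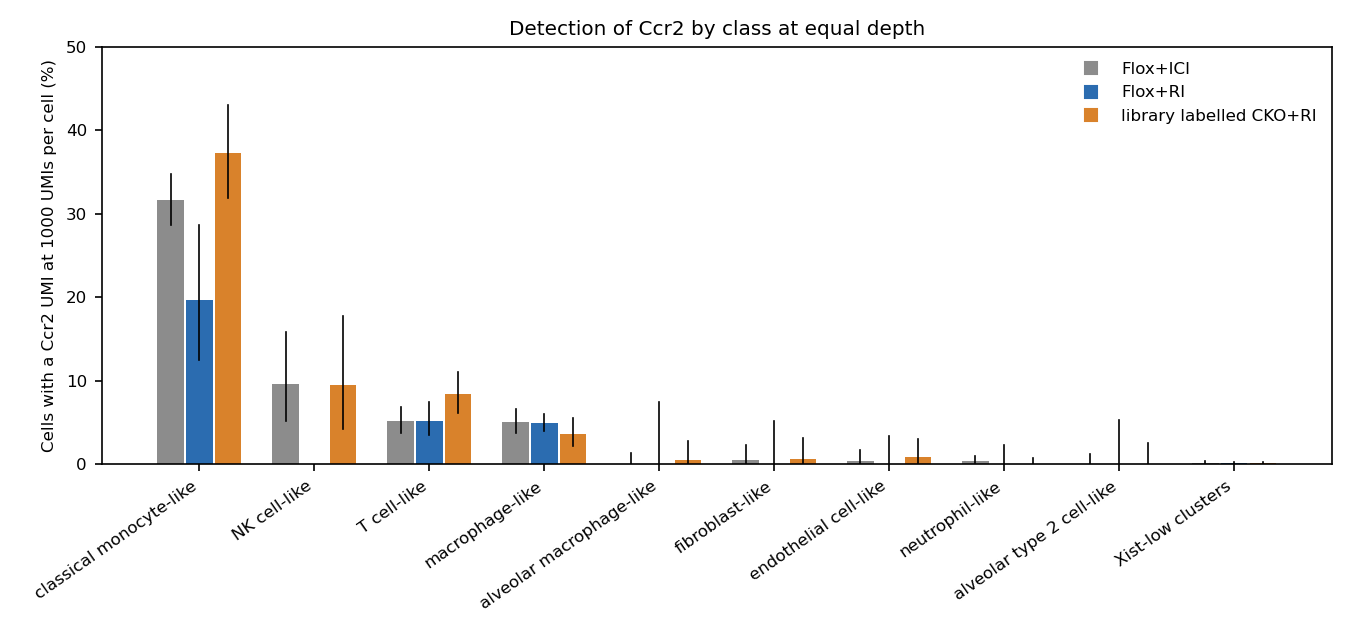
Share of cells with at least 1 Ccr2 UMI, in percent, after thinning each cell to 1000 UMIs, by class and library, with 95% Clopper-Pearson intervals. NK cell-like cells of Flox+RI (37 cells) are left out. Classical monocyte-like cells had the tallest bars, 31.6%, 19.6% and 37.3%.

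The class mix, taken as each cluster's share of UMIs and not of cells, was then held fixed. For this, 1 library was given the cluster shares of the other while keeping its own levels. For CKO+RI against Flox+RI, over 20 clusters, the Ccl8 ratio of 2.91 became 3.25 to 3.34, that of Ccl2 went from 2.80 to between 2.69 and 3.01, and that of Ccl11 from 23.4 to between 21.6 and 21.9. For these 3 ligands the ratio was thus about as large with the mix held. For Flox+RI against Flox+ICI, over 21 clusters, the Ccr2 ratio of 0.265 became 0.681 to 0.756 with the mix held, while the change of mix alone gave 0.351 to 0.390, further from 1 than the levels alone. In that comparison the Ccl7 ratio of 1.16 became 0.636 to 1.09 with the mix held, on either side of 1, and the Ccl2 ratio of 0.739 became 0.488 to 0.757. With each cell given the same weight, the Ccr2 ratio of CKO+RI to Flox+RI over all cells was 2.10, against 1.37 by UMIs.

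Some pairs of ligands were found together in more cells than others. Among macrophage-like cells thinned to 1000 UMIs, Ccl7 was found in 16.2% against 3.39%, 21.2% against 6.68% and 46.5% against 14.7% of cells with and without a Ccl2 UMI. Ccl12 was found in 9.33% against 2.20%, 25.2% against 3.28% and 28.8% against 8.22% of cells with and without a Ccl8 UMI. Ccl8 was found in 16.9% against 15.3%, 14.2% against 5.42% and 49.0% against 27.2% of cells with and without a Ccl2 UMI, close to each other in Flox+ICI. The class mixes clusters 4 and 6. Within cluster 6, Ccl7 was found in 22.4% against 4.96%, 34.1% against 13.9% and 50.7% against 17.6% by Ccl2, and Ccl12 in 10.9% against 5.65%, 30% against 9.60% and 29.5% against 10.8% by Ccl8. Over the class, Ccl8 was found in 2.04% against 16.2%, 1.14% against 7.13% and 15% against 37.5% of cells with and without a Ccr2 UMI. These rest on 1 of 49, 1 of 88 and 3 of 20 cells with a Ccr2 UMI, and in CKO+RI the intervals of the shares overlap. In cluster 2, Ccl7 was found in 13.8% against 7.44%, 12.6% against 7.63% and 20.2% against 6.87% of cells with and without a Ccl2 UMI. These shares describe cells of the same library and carry no test.

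Over 39 classes by library with at least 50 cells, the Pearson correlation of log2(CPM + 10) was used to find the genes most like each member among 16406 genes, as a description of points that share libraries. Ccl2 was most like Gm17268 (0.87), Ccl7 (0.87) and Etv1 (0.87), and Ccl7 was most like Ccl2 (0.87), Ctsl (0.86) and Cdk20 (0.82). Ccl8 was most like C1qc (0.90), Folr2 (0.90) and C1qa (0.89), and Ccl12 most like Folr2 (0.96), Fcrls (0.91) and Ms4a14 (0.89). Ccl11 was most like Dcn (0.87), Foxf2 (0.84) and Lrrc17 (0.82). Ccr2 was most like Ifi209 (0.96), Ms4a4c (0.92) and Ms4a6b (0.87), of which Ms4a4c was among the markers used to name monocytes. Ccl8 and Ccl12 correlated at 0.88, while Ccl2 and Ccl8 correlated at 0.30.

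The wider pathway was read from 42 genes in 5 lists: other CC chemokines and receptors, atypical scavenger receptors, signalling below CCR2, monocyte growth and survival, and inducers of the ligands. In macrophage-like cells 4 of 32 measured genes were at least 2-fold higher in CKO+RI than in Flox+RI and 2 lower, where 6.6% and 9.22% of all genes were. Ccl17, a CCR4 ligand, was 7.47-fold higher, at 10.1 against 1.35 CPM, and Rgs1, a regulator that shortens G protein signals, was 3.21-fold higher, at 289 against 90.3 CPM. Ccl24, another eotaxin, was 5.13-fold lower, at 17.8 against 91.4 CPM, and Cx3cr1, the fractalkine receptor, was 2.08-fold lower, at 49.5 against 103 CPM. Between Flox+RI and Flox+ICI, 2 of 32 were higher and 0 lower, against 3.51% and 3.36% of all genes. Ccl24 was 13.8-fold higher, at 91.4 against 6.60 CPM, and the scavenger receptor Ackr3 was 5.51-fold higher, at 4.16 against 0.754 CPM. Ccl24 was thus highest in Flox+RI. The levels of Ackr3 in both Flox libraries and of Ccl17 in Flox+RI were low, and the part of free RNA from other cells in them was not tested.

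In the Xist-low clusters 3 of 36 pathway genes were higher in CKO+RI than in Flox+RI and 4 lower, against 4.75% and 9.61% of all genes. In Flox+RI against Flox+ICI, 4 of 34 were higher and 2 lower, against 3.32% and 8.56% of all genes. Between CKO+RI and Flox+RI, Ackr3 was 2.31-fold higher, at 62.1 against 26.9 CPM, Tnf was 4.88-fold lower, at 1.32 against 6.44 CPM and Ccl24 was 4.45-fold lower, at 0.0800 against 0.356 CPM. Between Flox+RI and Flox+ICI, Ccl24 was 5.73-fold higher, at 0.356 against 0.0620 CPM (interval of the ratio 1.75 to 29.7, from 25 and 3 UMIs), Tnf was 2.83-fold higher, at 6.44 against 2.27 CPM and Cx3cr1 was 3.18-fold lower, at 2.97 against 9.47 CPM. Tnf and Ccl24 were thus highest in Flox+RI in these clusters, at low levels, and the part of free RNA from other cells in them was not tested. In monocyte-like cells, Ccl7 and Ccl8 were past 2-fold higher in CKO+RI than in Flox+RI, 2 of 4 measured ligand and receptor genes. Of all genes 9.48% were higher, and 0 of 4 were lower against 8.1%. Both calls rest on few UMIs in Flox+RI. Ccl7 had 44 against 3 UMIs and a ratio of 2.55 (0.818 to 12.8), an interval that takes in no difference. Ccl8 had 53 against 2 UMIs and a ratio of 4.61, with a lower limit of 1.21. Among the pathway genes in this class, 1 of 26 was higher and 5 were lower in CKO+RI than in Flox+RI. Il1b was 7.30-fold lower, at 82.0 against 598 CPM, and Cx3cr1 was 5.85-fold lower, at 44.8 against 262 CPM. The Flox+RI class held 131 cells, and its macrophage markers summed to 1970.3, 4101 and 1564 CPM, highest in Flox+RI, whose part in these ratios was not tested. Between the Flox libraries, 0 of 4 ligand and receptor genes were past 2-fold in monocyte-like cells, against 7.83% of all genes higher and 7.79% lower, and among the pathway genes 1 of 26 was higher, Tnf at 511 against 182 CPM, and 0 lower.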

How the data were processed

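The deposited matrices hold UMI counts, whole numbers per gene and barcode, made by the authors with Cell Ranger 6.0 per the submitters' processing notes and 6.1.2 per the file headers, on mm10 (GRCm38) per those notes. From these counts, a barcode stayed if it had 200 genes or more and no more than 20% of its UMIs from mitochondria, and the highest Scrublet scores were removed as doublets at 0.8% per 1000 barcodes. Cells were clustered with scanpy 1.11.5 (2000 variable genes without the 6 members, 30 principal components, 15 neighbours, Leiden resolution 1.0, or 2.0 for the finer clustering). Of the 22 clusters, 18 were named by the best-scoring marker list and 4 stayed unnamed.

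With 1 library per group there is no test of the groups. Levels are summed UMIs per 1000000 with exact Poisson intervals, ratios have exact conditional binomial intervals and shares exact Clopper-Pearson intervals, at 95%, for counting error only. Groups were taken from the sample titles. Classes were compared with at least 50 cells in both libraries. The 6 members are always named. Of the pathway lists, the 2 genes with the largest ratio past 2-fold in each direction are named in macrophage-like cells, the Xist-low clusters and monocyte-like cells, and for each member the 3 most alike genes. 1 pathway gene that met this rule is not reported here. The members and lists were chosen with earlier results of these data known. On simulated counts with known changes in macrophage-like cells, 99.5% of 194 changed genes were called for CKO+RI against Flox+RI and 99.0% of 195 for Flox+RI against Flox+ICI, 1.04% and 1.30% of unchanged genes were called, and intervals covered 95.9% and 94.4% of the changes. The simulated counts were Poisson draws from 1 pooled profile, without spread between cells or mice. They therefore do not check the calls or the intervals against such spread. For calls past 2-fold, 0.5 was added to each count. Alternatives were no doublet removal, at most 10% mitochondrial UMIs, at least 1000 UMIs per barcode, each cell at the same weight, Leiden resolution 2.0 and naming each cell directly by its own markers (at least 2 found). Protein sequences and 3 of the promoters were not used here.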

Additional observations from a re-analysis of the deposited data

How the results depend on the processing

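Over 36 ratios and 192 values under the alternatives, 147 stayed within the counting interval of the main value, 43 moved beyond it and 2, of ratios whose interval lay clear of 1, turned direction; the cause was not tested. The turned ratios were Ccl2 in macrophage-like cells without doublet removal (Flox+RI against Flox+ICI, 0.812 against 1.32) and Ccr2 there at resolution 2.0 (CKO+RI against Flox+RI, 0.889 against 1.21). With each cell at the same weight, ratios of CKO+RI to Flox+RI over all kept cells were 3.04 for Ccl2, 2.28 for Ccl7, 3.61 for Ccl8, 1.93 for Ccl12 and 2.10 for Ccr2, the last now past 2-fold. Those of Flox+RI to Flox+ICI were 0.917 for Ccl2, 1.57 for Ccl7, 0.783 for Ccl8 and 2.35 for Ccl12, the last now past 2-fold. In the Xist-low clusters Ccl2 gave 2.71 for CKO+RI against Flox+RI and 0.675 for Flox+RI against Flox+ICI, and the latter comparison gave 1.60 for Ccl7 and 0.577 for Ccl8 in macrophage-like cells and 0.545 for Ccr2 in monocyte-like cells. With at least 1000 UMIs per barcode, Ccl2 over all cells gave 2.79 for CKO+RI against Flox+RI. Naming cells directly used no Xist, and cells matched to the carcinoma list then stood in for the Xist-low clusters. In those cells CKO+RI against Flox+RI gave 2.13 for Ccl2 and 16.3 for Ccl11. The same comparison gave 4.92 for Ccl7 and 7.42 for Ccl8 in macrophage-like cells and 6.23 for Ccr2 in monocyte-like cells. Flox+RI against Flox+ICI then gave 0.670 for Ccl2 in carcinoma-matched cells, 0.586 for Ccl8 in macrophage-like cells and 0.192 for Ccr2 in monocyte-like cells. Without doublet removal, macrophage-like cells gave 3.41 for Ccl7, 5.44 for Ccl8 and 3.31 for Ccl12 (CKO+RI against Flox+RI) and 1.43 for Ccl7 (Flox+RI against Flox+ICI). At resolution 2.0 they gave 3.71, 6.08 and 3.43 for Ccl7, Ccl8 and Ccl12 (CKO+RI against Flox+RI).

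No paired analysis was possible because each group has 1 library, which also leaves no replicate to omit. The number of mice behind a library was not stated, and the spread between mice is unknown. Low counts limit Ccl11 in Flox+RI, at 38 UMIs in the Xist-low clusters and 9 in fibroblast-like cells, and Ccr2 in the 131 monocyte-like cells of Flox+RI, at 70 UMIs.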
